A study of Homo sapiens with 6 samples.

Results

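The genes described here are members of the TNF superfamily and of the NF-kB signalling pathway, measured in U-2 OS cells, a human osteosarcoma line, that carried S22A-progerin or wt-progerin. They were chosen by annotated symbol: every gene whose symbol starts with TNFSF, TNFRSF, TNFAIP, TRAF, TNIP, NFKB or IKBK, together with TNF, REL, RELA, RELB, BIRC2, BIRC3, BCL3, CYLD, RIPK1, RIPK2, PTGS2, SOD2, ICAM1 and IER3, without antisense RNAs. The rule gave 26 genes of the 14884 genes tested, of which 24 code for proteins. The other members are TNFRSF10A-DT, a divergent long noncoding RNA, and TNIP2P1, a pseudogene. By role the set holds 1 ligand, 20 core factors, 3 targets and 2 noncoding genes. The core factors are adaptors, enzymes, transcription factors, their regulators and brakes, and 3 genes that share the TRAF prefix without being TRAF adaptors. It holds no receptor gene: none of the 21 TNFRSF genes in the RefSeq gene table was named by a probe set, so these receptors were not analysed here. Receptors with other symbols, such as EDA2R and NGFR, were counted in a further list. Also not analysed here were 12 of 13 ligands and 24 other genes. Among these are NFKBIA, NFKBIE, TNFAIP3 and all other TNFAIP genes, BIRC3, RIPK1, SOD2, TRAF2, TRAF6 and the IKBK genes. Of the 81 protein-coding genes in the RefSeq gene table that meet the rule, 24 were measured and 57 were not. Counts given for the set therefore cover the measured genes only.

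Both groups were infected with a retroviral vector, kept under puromycin (5 µg/ml) for 3 days, and collected 4 days after infection. In 3 arrays the cells expressed S22A-progerin, in which serine 22 of progerin is alanine, and in 3 arrays wt-progerin, the truncated form of lamin A of Hutchinson-Gilford progeria without that change. Both groups therefore share progerin, the vector and the selection, and U-2 OS cells lacking progerin were not analysed here. The promoter that drives progerin in the vector is not given in the sources used here. The question of the comparison is how expression differs when residue 22 cannot be phosphorylated.

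NF-kB is a family of dimeric transcription factors that wait in the cytoplasm, bound by IkB proteins. Ligands such as TNF bind trimeric receptors, which gather TRAF adaptors, cIAP ubiquitin ligases and RIP kinases. This scaffold activates the IKK complex, which marks IkB for destruction and frees the dimers NFKB1-RELA and NFKB1-REL. A slower branch, held back by TRAF3 and the cIAPs, leads through processing of NFKB2 to NFKB2-RELB dimers. Many genes of the pathway, among them NFKB1, NFKB2, REL, RELB, TRAF1 and brakes of the pathway, are known targets of NF-kB themselves.

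The values are log2 expression values made with RMA, in which background is corrected, arrays are quantile normalized and the probes of a probe set are summarised. Each difference given is the S22A-progerin mean minus the wt-progerin mean on this scale (n = 3 arrays per group). A difference is called here when limma, fitted over all 14884 genes, gave a Benjamini-Hochberg adjusted p under 0.05. Array medians over all probe sets lay between 6.05 and 6.09 in S22A-progerin and at 6.04 in wt-progerin. The correlation of arrays across genes (genes are no replicates of each other) was 0.994 to 0.996 within S22A-progerin, 0.996 to 0.997 within wt-progerin and 0.983 to 0.985 between the groups. LMNA, the gene of lamin A and progerin, averaged 8.29 ± 0.024 in S22A-progerin and 8.14 ± 0.036 in wt-progerin (SD, n = 3 each). It was not called (difference 0.15, adjusted p = 0.0796), but every S22A-progerin array lay above every wt-progerin array. LMNA did pass as higher with the arrays quantile normalized again (difference 0.17, limma adjusted p = 0.0456). It also passed with the dimmer 50% of genes left out (difference 0.15, limma adjusted p = 0.0237), and under no other alternative. Equal LMNA RNA in the 2 groups was therefore not shown. The mesenchymal marker VIM averaged 10.83 in S22A-progerin and 10.89 in wt-progerin. COL1A1, COL1A2, SPARC, CDH2 and ALPL were not analysed here. Since whole cultures were read, a change in the share of cells that express a gene and a change in RNA per cell cannot be told apart.

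Of the 26 genes, 14 rose in S22A-progerin and 0 fell, by limma. At an unadjusted limma p under 0.05, 16 were higher and 0 lower, against 2385 higher and 3078 lower of all 14884 genes. Over all genes tested 10.8% were called higher and 14.6% lower, 25.4% in all. PTGS2 rose 2.81-fold, and the other rises ran from 1.15-fold to 1.61-fold. The median difference was 0.25 over the 26 genes and -0.00367 over all genes. The difference was above 0 in 23 genes and below 0 in 3, TRAF3IP1, TRAFD1 and TRAF5, none of which was called. In 18 of the 26 genes every S22A-progerin array lay above every wt-progerin array, against 18.5% of all genes. Of the 14 rises, 12 kept their call under every alternative that tested them, and TRAF3 and TNIP2P1 did not.

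**Figure D1:**
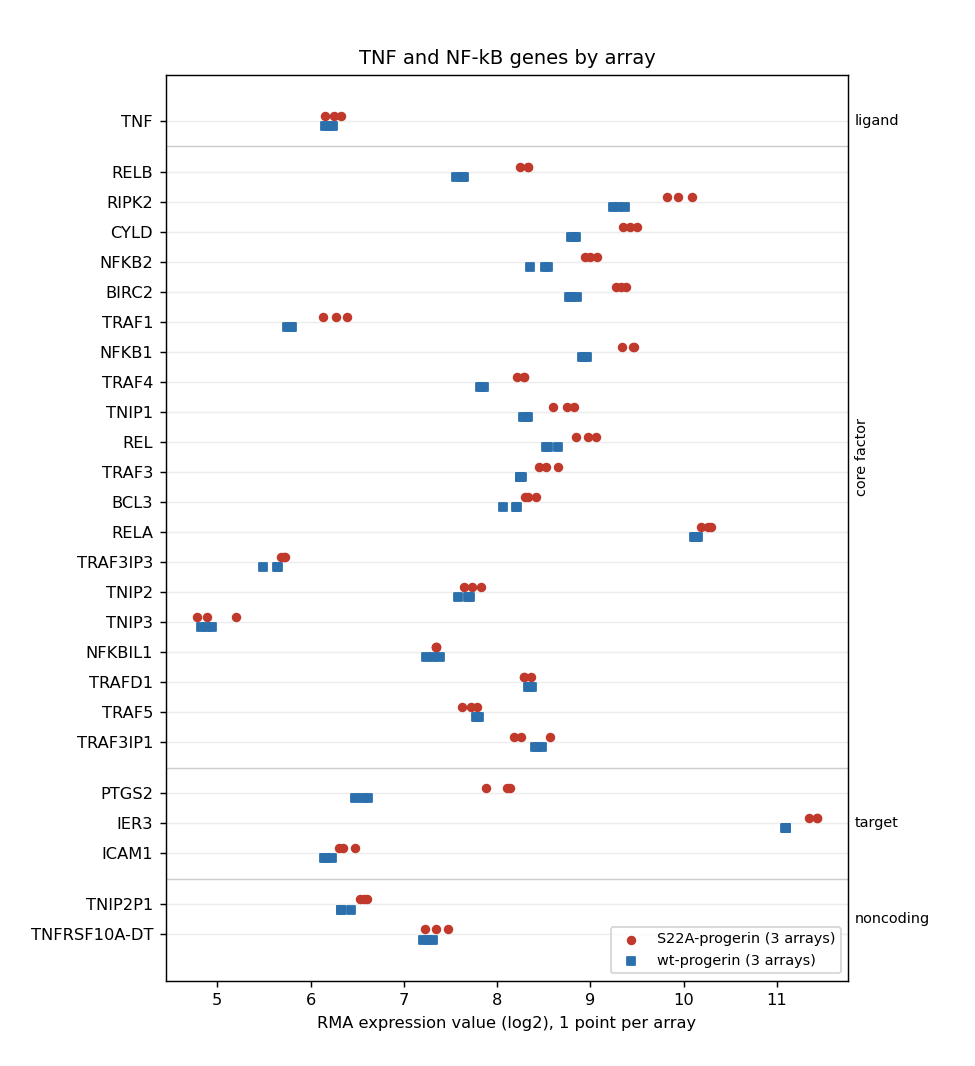
RMA expression value (log2, horizontal axis) of each TNF and NF-kB gene in the 3 S22A-progerin arrays (red circles) and the 3 wt-progerin arrays (blue squares), ordered by role and by difference. The points of the 2 groups are apart in PTGS2, RELB, RIPK2 and CYLD and mixed in TNF, TNIP3 and TRAF3IP1.

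The set was brighter than the average gene: 20 of its 26 genes lay in the brighter 50% of genes, where 13.7% of all genes were called higher. Of those 20 genes, 12 rose. Of the 6 genes in the dimmer 50%, where 7.79% of all genes were called higher, TRAF1 and TNIP2P1 rose. No background signal was used here, so a dim value cannot be told from absence, and differences of dim genes are compressed.

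**Figure D2:**
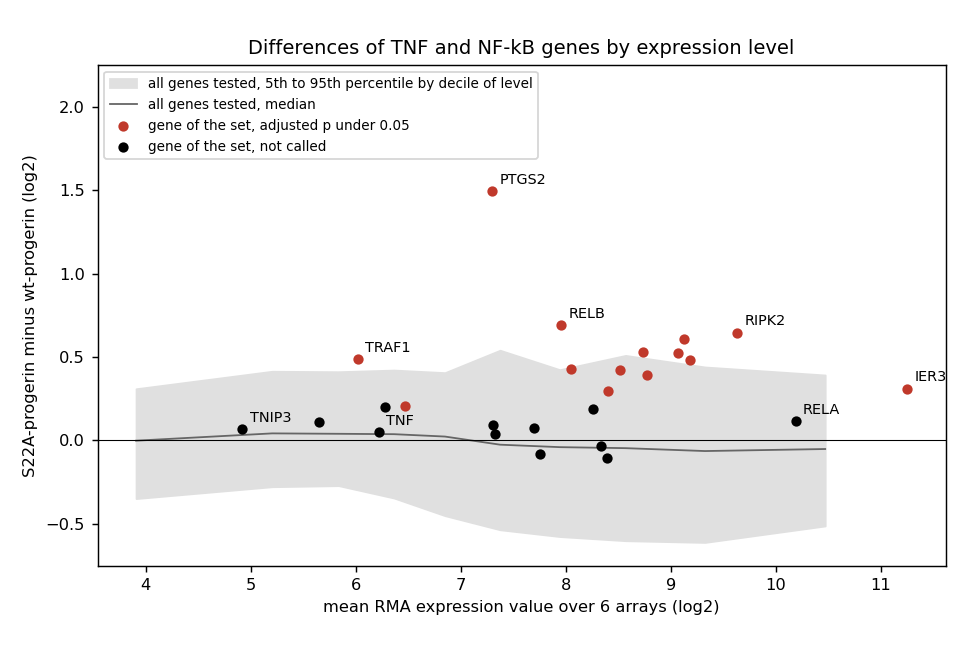
Difference between S22A-progerin and wt-progerin (log2, vertical axis) against mean expression value over 6 arrays (log2, horizontal axis) for the TNF and NF-kB genes, red where called and black where not. The grey band holds the 5th to 95th percentile of all genes tested in each decile of level; PTGS2, RELB, RIPK2 and TRAF1 lie above it and RELA, TNF and TNIP3 lie inside it.

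Promoter sequence was examined for the core factors and targets because many of these genes are known to be switched on by NF-kB itself. RefSeq (GRCh38.p14) gave 38 annotated start sites for 20 of the 26 genes. IER3, RELB, RIPK2, TNFRSF10A-DT, TNIP2P1 and TRAFD1 had no entry. The 250 bases before each start site were searched on both strands for the kappaB consensus, the 10-base recognition site of NF-kB dimers. A looser motif, GGNNNTTCC, was searched as well, and most of its matches in these genes overlap those of the consensus. The consensus was found before 1828 of all 35116 start sites (5.21%). It was found before 7 of 19 start sites of the genes that rose and before 2 of 19 of those that were not called. By gene, 6 of 10 genes that rose held it, namely CYLD, NFKB1, NFKB2, REL, TNIP1 and TRAF3, and 1 of 10 that were not called, TNIP3. The share of all genes that hold it was not computed, so the counts by gene have no background here. The looser motif was found before 17.1% of all start sites, and before 7 of 19 in genes that rose and 7 of 19 in genes that were not called. Of the latter, the 2 start sites of TRAF3IP1 lie close together and share the same matched bases. By gene, 6 of 10 genes that rose and 5 of 10 that were not called held the looser motif. A match is a description of the letters and not a bound site, and genes with several start sites had several chances to hold it.

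Stretches that hold matches are shown on the strand of each gene, 5′ to 3′, from RefSeq at GRCh38.p14, with the matched bases in capitals. For REL, NFKB2, TNIP3 and ICAM1 the capitals cover 2 or more overlapping matches on the 2 strands. In the stretches of NFKB1, REL, TRAF3 and TNIP1 the match lies within 50 bases of the start site. NFKB2 and TNIP3 hold further matches that are not shown. For NFKB2 these include a match that begins 21 bases before another of its start sites. TNIP3 is shown as the member that holds the consensus and was not called, and ICAM1 as a target that holds only the looser motif.
NFKB1, chr4:102501279-102501358, + strand: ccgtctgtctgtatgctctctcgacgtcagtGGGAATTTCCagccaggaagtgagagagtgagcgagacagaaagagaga
REL, chr2:60881494-60881573, + strand: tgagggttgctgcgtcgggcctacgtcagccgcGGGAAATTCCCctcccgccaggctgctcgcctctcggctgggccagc
NFKB2, chr10:102394466-102394495, + strand: gtcatGGGAATTCCCCcctccggggggccg
TRAF3, chr14:102777369-102777448, + strand: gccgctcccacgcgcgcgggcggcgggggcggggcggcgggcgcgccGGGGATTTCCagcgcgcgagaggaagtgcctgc
TNIP1, chr5:151081035-151081114, - strand: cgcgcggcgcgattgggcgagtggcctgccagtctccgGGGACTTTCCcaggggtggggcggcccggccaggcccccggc
CYLD, chr16:50741876-50741955, + strand: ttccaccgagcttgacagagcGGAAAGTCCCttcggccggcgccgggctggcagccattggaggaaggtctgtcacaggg
TNIP3, chr4:121227494-121227573, - strand: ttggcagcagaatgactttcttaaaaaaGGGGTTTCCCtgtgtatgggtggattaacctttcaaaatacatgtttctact
ICAM1, chr19:10270910-10270989, + strand: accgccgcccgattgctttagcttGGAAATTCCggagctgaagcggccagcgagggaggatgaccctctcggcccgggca

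**Figure D3:**
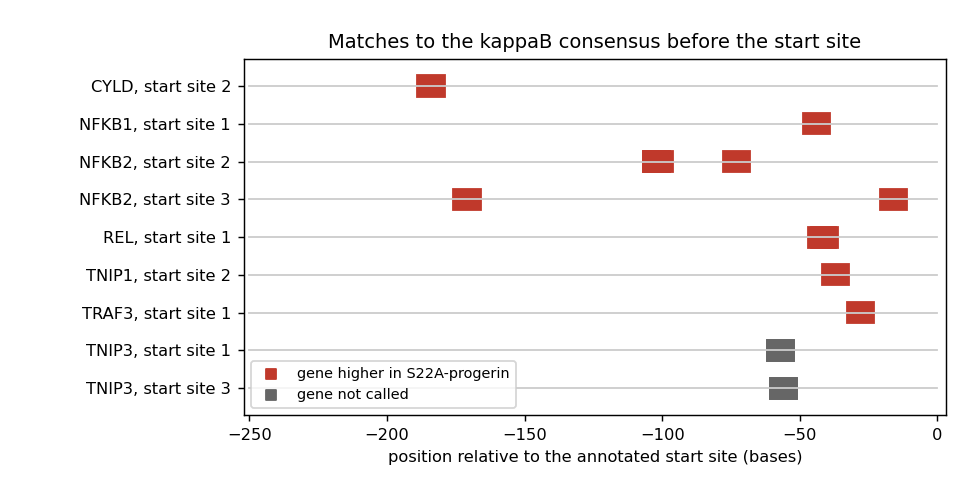
Position of matches to the kappaB consensus (boxes) in the bases before each annotated start site, in bases relative to that site (horizontal axis), for the start sites that hold 1 or more. Red boxes are genes that rose in S22A-progerin and grey boxes TNIP3, which was not called; overlapping matches on the 2 strands appear as a single wider box.

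The ligand did not pass the test. TNF, the cytokine that gives the family its name, lay between 6.15 and 6.33 in S22A-progerin and between 6.15 and 6.24 in wt-progerin. The groups overlapped, and the difference was 0.05 (95% interval -0.10 to 0.20, adjusted p = 0.64). TNF was read by 8 probe sets with 2 distinct sets of values, and 0 of them were called.

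Of the 5 Rel/NF-kB subunits, 4 rose. RELB, the partner of NFKB2 in the slower branch, read 8.33, 8.24 and 8.34 in S22A-progerin and 7.65, 7.62 and 7.56 in wt-progerin. Its groups were far apart, and it rose 1.61-fold (difference 0.69, SE 0.056, adjusted p = 0.000227), the largest difference among the core factors. NFKB2, the p100 precursor of p52, read 9.07, 8.999 and 8.95 in S22A-progerin and 8.51, 8.55 and 8.36 in wt-progerin. It rose 1.45-fold (difference 0.53, SE 0.070, adjusted p = 0.00178), without overlap.

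NFKB1, the p105 precursor of p50, read 9.46, 9.47 and 9.34 in S22A-progerin and 8.92, 8.96 and 8.95 in wt-progerin. It rose 1.40-fold (difference 0.48, SE 0.057, adjusted p = 0.00111), and its 3 wt-progerin arrays lay close together. REL, the c-Rel subunit, read 8.98, 8.85 and 9.06 in S22A-progerin and 8.65, 8.52 and 8.55 in wt-progerin. It rose 1.31-fold (difference 0.39, SE 0.072, adjusted p = 0.00764), with a gap between the groups.

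RELA, the p65 subunit that carries the main activation domain of the fast branch, was the subunit that did not pass. It read 10.26, 10.18 and 10.29 in S22A-progerin and 10.13, 10.15 and 10.11 in wt-progerin, so the groups did not overlap but lay close. Its difference was 0.11 (95% interval -0.01 to 0.24, adjusted p = 0.175). Taken array by array, the difference of each other subunit exceeded that of RELA, by 0.58 for RELB, 0.42 for NFKB2, 0.37 for NFKB1 and 0.28 for REL. In each of these 4 comparisons the groups did not overlap and the exact two-sided permutation p was 0.1, the smallest that 3 against 3 arrays allow, before any adjustment for the 4 comparisons. The comparisons reuse the values that gave the calls, so they are no separate support. The IkB-like regulators did not pass: BCL3, a nuclear partner of p50 and p52, differed by 0.19 (95% interval 0.04 to 0.34, adjusted p = 0.0734), and NFKBIL1 by 0.04. BCL3 did pass with the arrays quantile normalized again (difference 0.22), with the dimmer 50% of genes left out and with an intensity trend in the variance prior.

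Of the 4 TRAF adaptors measured, 3 rose. TRAF1, an adaptor that binds TRAF2 and the cIAPs, read 6.13, 6.28 and 6.39 in S22A-progerin and 5.74, 5.79 and 5.80 in wt-progerin. All S22A-progerin arrays were higher, and the gene rose 1.40-fold (difference 0.49, SE 0.075, adjusted p = 0.0034). TRAF4, an adaptor also known from cell polarity, read 8.29, 8.21 and 8.29 in S22A-progerin and 7.86, 7.82 and 7.84 in wt-progerin. It rose 1.34-fold (difference 0.43, SE 0.052, adjusted p = 0.00127), with little spread in either group.

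TRAF3, which with the cIAPs holds back the slower branch, rose 1.23-fold (difference 0.29, SE 0.065, adjusted p = 0.0161). It no longer passed without wt-progerin replicate 2 (difference 0.29, adjusted p = 0.0553) or replicate 3 (0.29, adjusted p = 0.0574), and its values were highest on S22A-progerin replicate 3. TRAF5, a relative of TRAF2, differed by -0.08 (95% interval -0.22 to 0.06). Genes that share the TRAF prefix without being TRAF adaptors did not pass. These were TRAF3IP3 (0.11), TRAFD1 (-0.03), a zinc finger protein of antiviral feedback, and TRAF3IP1 (-0.11), a component of the cilium transport complex. TRAF3IP1 read 8.26 and 8.18 on S22A-progerin replicates 1 and 2 and 8.57 on replicate 3, against 8.40 to 8.49 in wt-progerin. Without S22A-progerin replicate 3 it passed as lower (difference -0.23, adjusted p = 0.0393).

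Both members of the set classed as ubiquitin ligase or kinase rose. Enzymes of the pathway with other symbols were counted in a further list. RIPK2, the kinase that carries signals from the NOD receptors, read 9.94, 10.09 and 9.83 in S22A-progerin and 9.25, 9.29 and 9.38 in wt-progerin. It rose 1.56-fold (difference 0.65, SE 0.080, adjusted p = 0.00136), with groups well apart. BIRC2, the ubiquitin ligase cIAP1, read 9.38, 9.27 and 9.33 in S22A-progerin and 8.79, 8.86 and 8.77 in wt-progerin. It rose 1.44-fold (difference 0.52, SE 0.056, adjusted p = 0.000724).

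Of the 4 brakes of the pathway, 2 rose. CYLD, a deubiquitinase that strips the chains on which the scaffold is built, read 9.50, 9.43 and 9.35 in S22A-progerin and 8.85, 8.82 and 8.80 in wt-progerin. Its groups did not overlap and it rose 1.52-fold (difference 0.61, SE 0.058, adjusted p = 0.000447). TNIP1, a ubiquitin-binding partner of the A20 protein, rose 1.34-fold (difference 0.42, SE 0.071, adjusted p = 0.00534). TNIP2 and TNIP3, its relatives, were not called, with differences of 0.08 (95% interval -0.09 to 0.24) and 0.07 (95% interval -0.19 to 0.33). TNIP3 was the dimmest member, at percentile 11.9 of the tested genes by level, and the sign of its difference turned without S22A-progerin replicate 2 (-0.05).

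**Figure D4:**
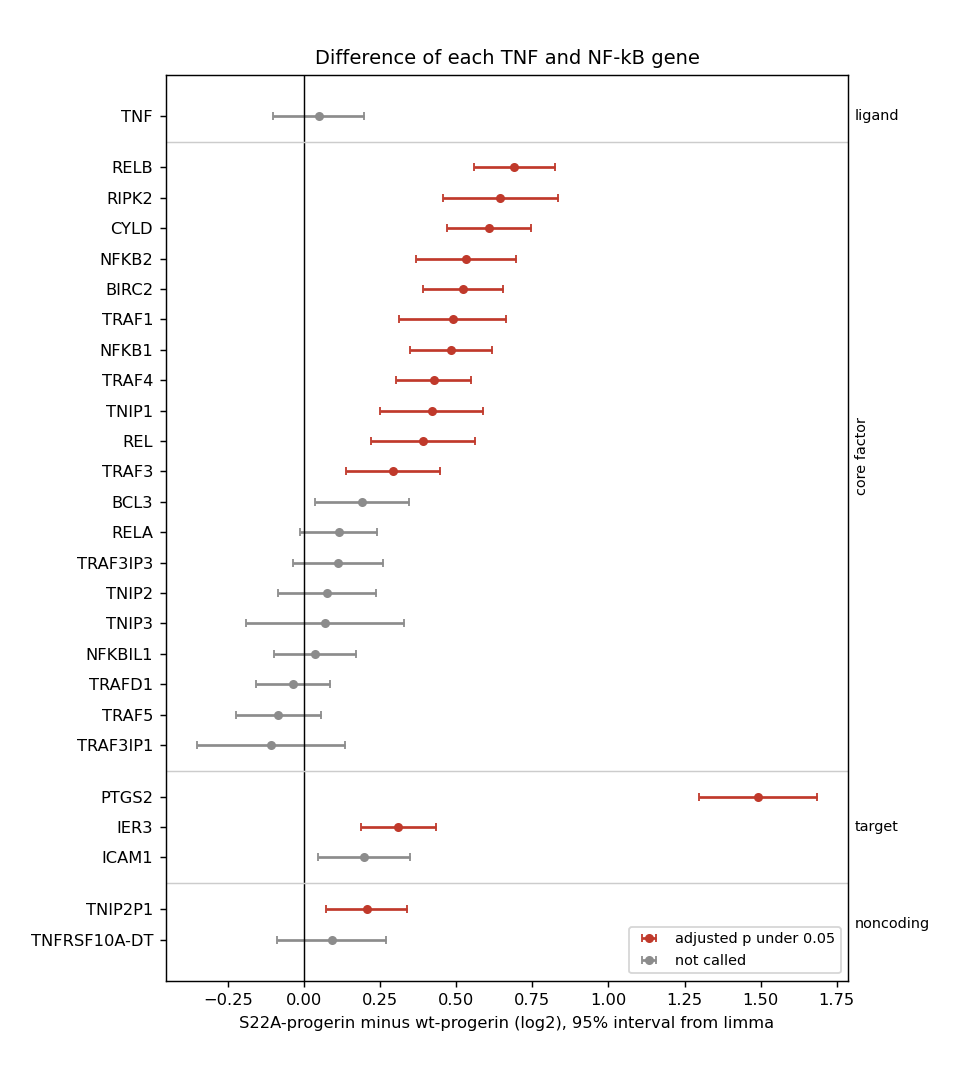
Difference between S22A-progerin and wt-progerin (log2, horizontal axis) of each TNF and NF-kB gene, with its 95% interval from limma (bars), red where called at adjusted p under 0.05 and grey where not. PTGS2 lies at 1.49 and the 11 core factors that rose between 0.29 and 0.69, while TNF and RELA have intervals that include 0.

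Among the targets, PTGS2 and IER3 rose. PTGS2, the inducible cyclooxygenase that makes prostaglandin H2, read 8.11, 8.14 and 7.88 in S22A-progerin and 6.56, 6.62 and 6.47 in wt-progerin. The lowest S22A-progerin array was far above the highest wt-progerin array. Its means were 8.04 ± 0.14 in S22A-progerin and 6.55 ± 0.071 in wt-progerin (SD, n = 3 each), a difference of 1.49 (SE 0.082, adjusted p = 5.09e-05), and it was the only member at a fold of at least 2. No match to the kappaB consensus or the looser motif was found in the 250 bases before its start site.

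IER3, an early response gene that limits cell death, was the brightest member. Its brightest probe set read 11.43, 11.43 and 11.35 in S22A-progerin and 11.08, 11.10 and 11.10 in wt-progerin, and it rose 1.24-fold (difference 0.31, SE 0.052, adjusted p = 0.00514). IER3 was read by 11 probe sets with 4 distinct sets of values, of which 6 probe sets passed when every probe set was tested on its own. The dimmest probe sets, at 7.62 in S22A-progerin and 7.57 in wt-progerin, differed by 0.06 and did not pass. ICAM1, an adhesion molecule that leukocytes bind, was dim and differed by 0.20 (95% interval 0.05 to 0.35, adjusted p = 0.0634). It passed when arrays were weighted.

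Of the noncoding members 1 passed. TNIP2P1 read 6.57, 6.53 and 6.60 in S22A-progerin, against 6.43, 6.33 and 6.33 in wt-progerin, and the groups did not overlap. It rose 1.15-fold (difference 0.21, SE 0.056, adjusted p = 0.035), but lost its call in 10 of 14 alternatives, among them without S22A-progerin replicate 1 (difference 0.20), replicate 2 (0.22) or replicate 3 (0.19) and without wt-progerin replicate 2 (0.19) or replicate 3 (0.19). As the pseudogene of TNIP2, its probes may share signal with that gene. TNIP2P1 was read by 2 probe sets, and 0 of them passed when every probe set was tested on its own. Its dimmer probe set differed by 0.10. TNFRSF10A-DT differed by 0.09 (95% interval -0.09 to 0.27), and its sign turned with its 2 probe sets averaged (-0.03).

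Other genes of the pathway, which do not follow the symbol rule, were counted in 3 further lists. All 3 lists were chosen with earlier results of these data known. Over all genes tested, 10.8% were called higher and 14.6% lower. Of 14 TNF superfamily genes with other symbols, 7 were measured, and 2 rose and 0 fell (median 0.10). At an unadjusted limma p under 0.05, 3 were higher and 0 lower, against 2385 higher and 3078 lower of all 14884 genes. EDA2R, the receptor for ectodysplasin A2 and a known p53 target, rose 1.54-fold, with means of 10.67 in S22A-progerin and 10.05 in wt-progerin (adjusted p = 0.000333). CD70, the ligand of CD27, rose 1.19-fold (difference 0.26, adjusted p = 0.031). CD70 no longer passed without S22A-progerin replicate 1 (difference 0.21), S22A-progerin replicate 3 (0.24), wt-progerin replicate 1 (0.24), wt-progerin replicate 2 (0.28) or wt-progerin replicate 3 (0.25), with the arrays centred on their median (0.22), or with the replicate number as a block (adjusted p = 0.0759), so that EDA2R alone was called there. NGFR (0.18), RELT (0.10), CD27 (0.02), EDAR (0.00337) and EDA (-0.00666) were not called, and FAS, CD40 and LTBR were not analysed here.

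Of 46 other signalling genes, 40 were measured, and 9 rose and 0 fell, with a median of 0.02. At an unadjusted limma p under 0.05, 11 were higher and 3 lower, against 2385 higher and 3078 lower of all 14884 genes. ZC3H12A, the RNase Regnase-1 that degrades inflammatory transcripts, rose 2.40-fold, with means of 9.35 in S22A-progerin and 8.09 in wt-progerin (adjusted p = 0.000335). MLKL, the effector of necroptosis, rose 1.97-fold (difference 0.97, SE 0.089, adjusted p = 0.000368). OPTN, a ubiquitin-binding autophagy receptor, rose by 0.60, and MAP3K8, the kinase TPL2, by 0.52. IRAK2, a kinase below the interleukin-1 receptor, rose by 0.54 (SE 0.146). Its call was lost without S22A-progerin replicate 1 (0.53), S22A-progerin replicate 2 (0.49) or wt-progerin replicate 3 (0.59). The list counted 6 rises without S22A-progerin replicate 1.

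The other rises in this list were TAB3 (0.42, adjusted p = 0.00194), an adaptor of the kinase TAK1, CFLAR (0.30, adjusted p = 0.0121), the caspase-8 inhibitor FLIP, BCL10 (0.29, adjusted p = 0.0246), an adaptor of antigen-receptor signalling, and TBK1 (0.24, adjusted p = 0.0358), a kinase related to IKK. TAB3 was not called with its probe sets averaged (0.17). BCL10 lost its call without S22A-progerin replicate 1 (0.30), replicate 2 (0.28) or replicate 3 (0.30), and without wt-progerin replicate 1 (0.22) or replicate 2 (0.31). TBK1 lost its call without S22A-progerin replicate 1 (0.25) or replicate 3 (0.19), without wt-progerin replicate 1 (0.24), replicate 2 (0.25) or replicate 3 (0.23), with the arrays centred on their median (0.21), and with the replicate number as a block (adjusted p = 0.0802).

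Among the genes of the list that were not called, TRADD differed by 0.06, FADD by -0.00284, MYD88 by 0.04, and CHUK, which encodes IKK alpha, by 0.00477. Larger differences were also not called, though their groups did not overlap. TICAM1 (0.26, adjusted p = 0.0548) and TIFA (0.18, adjusted p = 0.119) lay higher. MAP3K7 (-0.19, adjusted p = 0.0505), TAX1BP1 (-0.19, adjusted p = 0.0571) and AZI2 (-0.20, adjusted p = 0.0693) lay lower. The components of the linear ubiquitin ligase, RNF31 (-0.02), RBCK1 (0.03) and SHARPIN (-0.04), were not called. MAP3K14, the kinase NIK of the slower branch, differed by 0.04 (95% interval -0.16 to 0.24). These examples, and the 4 rises beyond the largest 5, were named after their values were seen.

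Of 46 further NF-kB targets, 32 were measured, and 12 rose and 1 fell, with a median of 0.20. Called higher were 37.5% of the list, against 10.8% of all genes. Called lower were 14.6% of all genes. As the list was chosen with earlier results of these data known, these shares are a description and no test of an excess. The 5 with the largest differences were the chemokine genes CXCL8 (3.56), CCL2 (2.85) and CCL20 (2.46), SAA1 (2.15) and BCL2A1 (1.58). SAA1, the acute-phase protein serum amyloid A1, averaged 8.46 in S22A-progerin and 6.31 in wt-progerin, a 4.44-fold rise. BCL2A1, an anti-apoptotic BCL2 relative, averaged 7.34 in S22A-progerin and 5.76 in wt-progerin, a 2.99-fold rise. The gene that fell was LIF (-0.33, adjusted p = 0.0184), a cytokine of the interleukin-6 family, named because it was the only fall. The fall was not called without wt-progerin replicate 1 or wt-progerin replicate 2, nor with the replicate number as a block, which left 0 falls in the list. VCAM1 (-0.10) and SELE (-0.02), adhesion molecules of activated endothelium, TLR2 (-0.03) and NOD2 (-0.05) were not called.

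**Figure D5:**
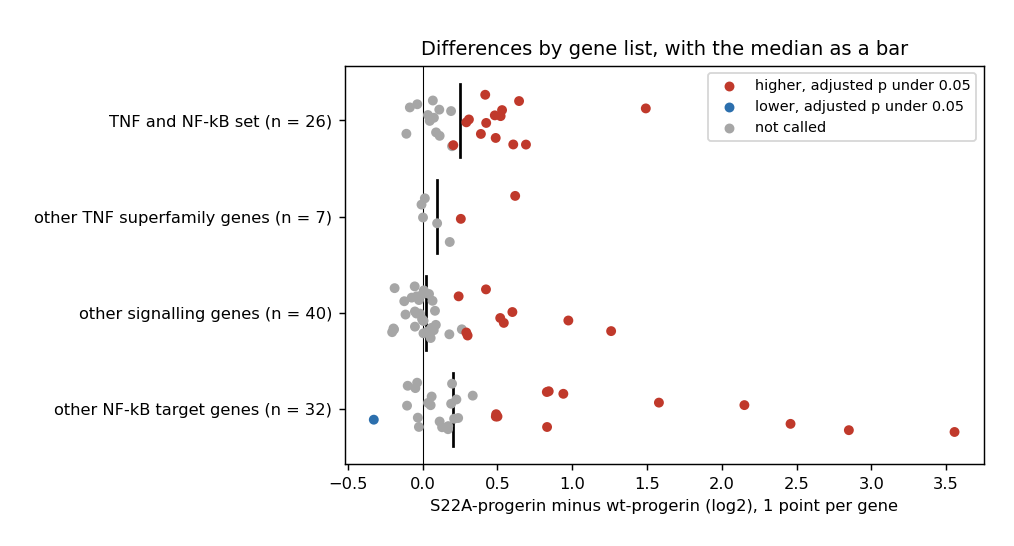
Difference between S22A-progerin and wt-progerin (log2, horizontal axis) of each gene of the TNF and NF-kB set and of 3 further lists, red where called higher, blue where called lower and grey where not called, with the median of each list as a black bar. The medians lie at 0.25, 0.10, 0.02 and 0.20 from top to bottom, and the rises above 2 belong to the further targets.

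Markers of other cell types were set beside these results. Of 8 leukocyte markers 4 were measured, and CD68, a lysosomal protein, was called higher (difference 1.48). CD14 (0.18), LYZ (0.26) and TYROBP (0.17) were not called. The mean over the 4 measured markers ran from 6.72 to 6.92 in S22A-progerin arrays and from 6.28 to 6.39 in wt-progerin arrays. The defining marker PTPRC was not analysed here. Of 3 epithelial markers KRT18 was called higher (0.51). EPCAM (-0.28, adjusted p = 0.131) and KRT8 (0.06) were not called, and the EPCAM values of S22A-progerin, 6.84 to 6.91, lay below those of wt-progerin, 6.92 to 7.40. Of 2 endothelial markers 0 were called. RUNX2, an osteoblast factor that marks the line, fell (-0.74). The part of these differences in the result was not tested.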

How the data were processed

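Expression was read on 6 Affymetrix whole-transcript arrays of U-2 OS cells, 3 per group, which the labels call independent. The p-values judge each difference against the spread between these arrays, with each gene's variance drawn toward a prior shared by all genes. Per the submitters' processing notes, the authors made the deposited log2 values by RMA with Affymetrix Expression Console. The version and genome build: not given in the sources used here. The platform table names 16098 of 53617 probe sets with 1 gene symbol and 0 with several, and 37519 stay unnamed here. The symbols of 0 probe sets changed when looked up by Entrez ID in RefSeq. The probe set with the highest mean over the 6 arrays stood for a gene. Genes were tested with limma 3.58.1 (R 4.3.3), lmFit and eBayes, 2 groups, no covariate, two-sided, with Benjamini-Hochberg adjustment over 14884 genes, and the code was tested on simulated data. The members, roles, lists and motifs were chosen with earlier results of these data known. Members are named with all 6 values if they are PTGS2, a Rel/NF-kB subunit or among the 8 largest called differences of the ligands, receptors, core factors or targets, and list genes if among the 5 largest called, with LMNA as the gene of the transgene. Others were picked after their values were seen. Alternatives covered scaling, dim genes, probe sets, priors, array weights, the replicate number, left-out arrays and a threshold of 0.01. Testing every probe set on its own was added after seeing the data. The number of arrays limits the precision.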

Additional observations from a re-analysis of the deposited data

How the results depend on the processing

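The count of higher genes in the TNF and NF-kB set stayed between 12 and 15 under 15 alternatives, and was 12 with every probe set tested on its own, an alternative chosen after seeing the data. The count of lower genes was 0 throughout, except without S22A-progerin replicate 3, so leaving out single arrays gave 0 to 1, in the set as in its core factors, the 1 being TRAF3IP1. At an adjusted p under 0.01, by construction, calls over all genes dropped to 2078, 852 higher and 1226 lower. That threshold left 1 rise among the other TNF superfamily genes, 5 among the other signalling genes and 0 falls among the other NF-kB targets. Among the other TNF superfamily genes 1 rose with the arrays centred, 1 with the replicate block, and 1 to 2 with single arrays left out. Among the other signalling genes, falls numbered 3 with the arrays centred, 3 with the dimmer 50% of genes left out, 1 with probe sets averaged, 3 with an intensity trend, 1 with array weights and 0 to 1 with single arrays left out. Falls among the other targets were 0 with the replicate block and 0 to 1 with single arrays left out. The cause was not tested in these cases. Signs turned in NFKBIL1 without wt-progerin replicate 1 (range -0.000713 to 0.074 with single arrays left out), in TNIP3 without S22A-progerin replicate 2 (range -0.0541 to 0.157) and in TNFRSF10A-DT with probe sets averaged (-0.0314), none of them called. Same-numbered arrays of the 2 groups correlated at -0.0549 to -0.00558 in their deviations from the group means. Of 6 arrays, 0 correlated best with their own number. No pairing by number was seen, but 3 arrays per group cannot exclude it. With the replicate block 2990 genes were called over all genes, against 3777 without it, and 13 in the set, where TNIP2P1 lost its call.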

Other observations

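Among the 14 genes that rose, the S22A-progerin arrays did not share an order. Replicate 3 had the highest value in 7 genes (REL, RELB, TRAF1, TRAF3, TRAF4, TNIP1 and TNIP2P1) and the lowest in 6 (NFKB1, NFKB2, RIPK2, CYLD, PTGS2 and IER3). Replicate 2 was lowest in 7 genes and replicate 1 in 1, TRAF1. The spread between arrays was larger in S22A-progerin than in wt-progerin in 21 of the 26 genes (80.8%), against 62.4% of all genes tested, with median SDs of 0.078 in S22A-progerin and 0.044 in wt-progerin over the set. The 2 antisense RNAs left out by the rule, TNFRSF14-AS1 and TRAF3IP2-AS1, differed by 0.16 (adjusted p = 0.323) and 0.09 (adjusted p = 0.543), and their groups overlapped.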
